A study of Mus musculus with 11 samples.

Results

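The genes described here are 10 mouse genes that make, break down, carry or respond to retinoic acid, taken by name out of 21755 protein-coding genes on chromosomes 1 to 19 and X. They are the synthesis enzymes *Rdh10*, *Aldh1a1*, *Aldh1a2* and *Aldh1a3*, the breakdown enzymes *Cyp26a1*, *Cyp26b1* and *Cyp26c1*, the binding protein *Crabp1* and the receptors *Rara* and *Rarb*. The measurement was H3K27me3, trimethylation of lysine 27 of histone H3, a mark deposited by Polycomb proteins at repressed genes. It was profiled by CUT&Tag, which cuts and tags DNA near an antibody bound to the mark, in wild-type C57BL/6J mouse embryos. The tissues were the medial (MGE), caudal (CGE) and lateral (LGE) ganglionic eminences (GEs), where forebrain inhibitory neurons are born, and the cortex (CTX). MGE had 2 samples and CGE, LGE and CTX had 3 each, 11 in all; these were dissected regions of untreated animals and held every cell type of the region. The study's methods describe tissue pooled from several embryos and a pair of biological replicates per region. The labels of CGE, LGE and CTX likewise hold 2 replicate numbers, the second carried by 2 samples, and do not say whether samples that share it were separate preparations. The protocol in the labels names brains at E12.5 and E14.5, whereas the study places this assay at E12.5. It also speaks of joining nuclei of the regions, although each sample carries the name of 1 region. All samples of a region were merged by the authors before broad peaks were called, so each region is 1 peak list. The values below therefore have no replicate error, and none of the differences between lists was tested. An increase or decrease of the mark within cells and a change in the mix of cells cannot be told apart in these tissues.

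Retinoic acid is made from vitamin A in 2 oxidation steps. RDH10 turns retinol into retinaldehyde, and the ALDH1A enzymes turn retinaldehyde into retinoic acid. The CYP26 enzymes oxidize it further and clear it, CRABP1 holds it in the cytoplasm, and the RAR receptors bind it in the nucleus, where they sit with RXR partners on response elements made of repeated half-sites. In the embryonic forebrain, sources of retinoic acid include the meninges and part of the LGE, and the pathway is known for roles in neuronal differentiation. *Rarb* and *Cyp26a1* are textbook targets of retinoic acid through an element beside their start sites.

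The sequences of these 2 targets are shown because each holds a match to such an element, and the peak lists differ in where they place the *Rarb* one. Each window runs from 250 bases before to 50 bases after a RefSeq start (GRCm38.p6), 5′ to 3′ on the strand of the gene, with the match in capitals. The match is a DR5, a direct repeat of 2 half-sites with 5 bases between them, searched on both strands. A half-site was the consensus AGGTCA, the common variant GGGTCA, the form AGTTCA found in many natural elements, or the related form GGTTCA. The *Rarb* window is chr14:16575427-16575726 on the minus strand and the *Cyp26a1* window is chr19:37697558-37697857 on the plus strand. In *Cyp26a1* the repeat reads on the opposite strand, so that the capitals show its reverse complement.
Rarb: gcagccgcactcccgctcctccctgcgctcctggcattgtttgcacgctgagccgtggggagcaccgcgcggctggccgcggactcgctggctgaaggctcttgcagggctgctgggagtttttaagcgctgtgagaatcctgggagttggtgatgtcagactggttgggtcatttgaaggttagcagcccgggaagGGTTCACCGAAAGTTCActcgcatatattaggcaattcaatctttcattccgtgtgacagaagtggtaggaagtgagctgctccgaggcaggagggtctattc
Cyp26a1: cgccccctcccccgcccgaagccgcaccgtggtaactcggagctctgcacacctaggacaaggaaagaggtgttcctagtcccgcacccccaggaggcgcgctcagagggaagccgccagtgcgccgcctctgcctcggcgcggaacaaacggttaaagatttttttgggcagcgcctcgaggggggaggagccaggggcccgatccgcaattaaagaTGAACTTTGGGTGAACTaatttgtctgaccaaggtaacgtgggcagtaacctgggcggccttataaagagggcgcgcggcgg
A DR5 was found in 32 of 32851 such windows of all genes (0.0974%). The windows of the other 6 genes that had one in the RefSeq table held none.

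The windows of *Aldh1a2* (chr9:71215539-71215838, plus strand) and of 1 start of *Aldh1a1* (chr19:20492333-20492632, plus strand) are shown with each CG dinucleotide in capitals. They were chosen because, of these related enzymes, the first window was wholly covered and the second uncovered in every list. The *Aldh1a2* window had 50 CG dinucleotides and lay wholly under a peak in all 4 lists. The *Aldh1a1* window had 3 and held no covered base in any list. They are a pair picked for contrast. The *Cyp26c1* window had 5 CG dinucleotides and also lay wholly under a peak in all 4 lists. So did the windows of *Crabp1* with 17 and *Cyp26a1* with 26.
Aldh1a2: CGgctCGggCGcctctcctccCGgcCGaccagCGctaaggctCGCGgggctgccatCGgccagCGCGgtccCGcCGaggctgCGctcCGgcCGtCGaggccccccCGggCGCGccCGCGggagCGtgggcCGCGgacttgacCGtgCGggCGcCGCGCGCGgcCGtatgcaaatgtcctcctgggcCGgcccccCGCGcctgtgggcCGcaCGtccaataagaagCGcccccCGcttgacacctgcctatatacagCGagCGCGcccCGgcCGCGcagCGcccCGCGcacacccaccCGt
Aldh1a1: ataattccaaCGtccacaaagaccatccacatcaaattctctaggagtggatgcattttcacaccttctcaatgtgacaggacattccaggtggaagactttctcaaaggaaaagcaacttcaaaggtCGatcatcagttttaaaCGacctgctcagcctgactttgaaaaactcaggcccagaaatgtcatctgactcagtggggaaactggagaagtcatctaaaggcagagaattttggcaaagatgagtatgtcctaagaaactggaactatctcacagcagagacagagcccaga

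Most of these genes carried H3K27me3 in every region. A peak lay over the gene body or the 10 kb either side of it at 9 of the 10 genes in MGE, where 43.3% of all protein-coding genes had one. The numbers were 10 of 10 in CGE (46.0% of all genes), 9 of 10 in LGE (44.7%) and 9 of 10 in CTX (47.2%). The exception in MGE, LGE and CTX was *Aldh1a1*. Such a count grows with the length of a gene, so the covered share of the same window was also taken. Its median over the 10 genes was 10.1%, 10.5% and 10.1% in MGE, CGE and LGE and 10.1% in CTX, against medians of 3.27%, 4.46%, 3.58% and 3.57% over all genes with a peak and of 0 over all genes.

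Promoters were taken as the 2 kb upstream of the outermost annotated 5′ end and called marked when at least 50% of their bases were covered. Marked promoters numbered 5 of 10 in MGE (6.47% of all genes), 5 in CGE (8.33%), 6 in LGE (6.52%) and 6 in CTX (7.14%). *Aldh1a2*, *Aldh1a3*, *Cyp26a1* and *Cyp26c1* were marked in all 4 lists, a state that 4.72% of all genes shared. *Rdh10* was marked in MGE, LGE and CTX. *Crabp1* was marked in CGE, LGE and CTX and lay just under the threshold in MGE. *Aldh1a1*, *Cyp26b1* and *Rarb* had no covered promoter base in any list, and *Rara* had covered promoter bases in CGE alone, too few to count as marked.

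The start window reached 2 kb to each side of the 5′ end. Of all genes, 1.53% differed there by 50 percentage points or more between a pair of lists, and 0 of the 10 did. The widest ranges were 33.9 points at *Rdh10* and 29.6 points at *Rara*. A promoter marked in one list and free of covered bases in another was found at 1.72% of all genes and at 1 of the 10, *Rdh10*. With 10 genes, such counts say little about the group. Of the 74216 bases that any list covered in the windows of the 10 genes, 62.1% were covered in all 4 lists and 19.5% in a single list. The same shares over the whole of the chromosomes were 33.0% and 38.0%. The overlap of a pair of lists, as the shared part of their joined bases, was lowest for CGE with CTX (72.1%) and highest for CGE with LGE (83.1%) over these windows, and lowest for MGE with CTX (46.5%) and highest for CGE with LGE (60.1%) over the chromosomes.

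**Figure D1:**
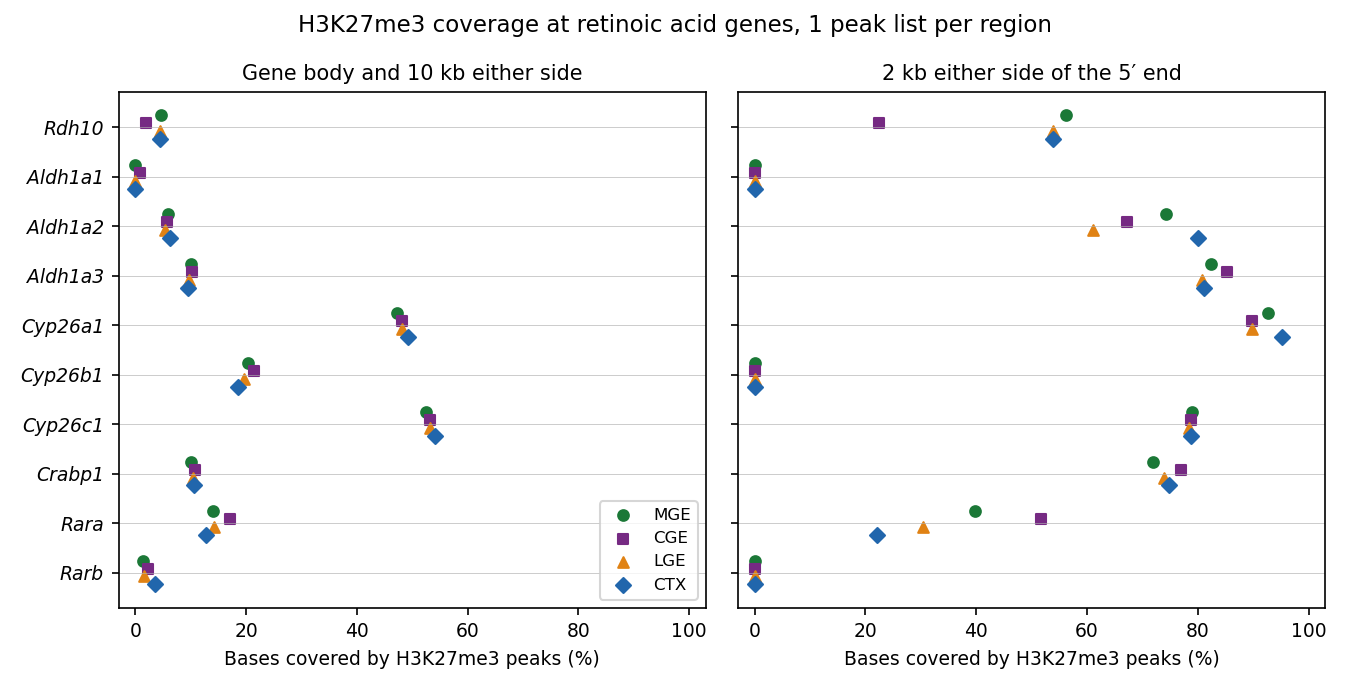
Share of bases under H3K27me3 peaks at the 10 retinoic acid genes, over the gene body with 10 kb either side (left) and over 2 kb either side of the outermost 5′ end (right). Each point is 1 peak list from merged samples of a region, so no error bar exists. *Cyp26a1* and *Cyp26c1* lie at 47.3% to 54.1% on the left in every region, and *Rdh10* in CGE lies apart from its other 3 lists on the right.

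The whole series limits what can be read from such differences. The MGE list held 15384 peaks over 24.5 Mb, the CGE list 19196 over 32.9 Mb, the LGE list 16851 over 26.4 Mb and the CTX list 18785 over 31.2 Mb. In the study's methods CGE had the most reads and MGE the fewest, and a deeper list can hold more and weaker peaks. The −log10 q of a peak follows depth as well, and values of different lists are printed side by side with no comparison of their size. Of 11 marker genes of a single region, 7 had their lowest coverage over the gene and 10 kb either side in the list of that region. *Lhx6*, *Prox1*, *Sp8* and *Neurod2* had it in another list. The 4 markers of the GEs were all highest in CTX, mostly by a narrow margin. CTX and the next list had 56.4% and 56.3% (CGE) at *Dlx1* and 49.1% and 48.6% (CGE) at *Dlx2*. The values were 13.4% and 13.2% (MGE) at *Gad1* and 61.8% and 57.7% (CGE) at *Gsx2*. Of 5 markers of meninges, mesenchyme and blood, *Foxc1*, *Col1a1*, *Tbx18* and *Tal1* had covered start windows in every list and *Gata1* had no peak in any.

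*Rdh10*, the retinol dehydrogenase of the first step (chr1:16105774-16133734, plus strand), differed in the CGE list. Its promoter was 65.8%, 0% and 65.8% covered in MGE, CGE and LGE and 65.8% in CTX. In MGE, LGE and CTX 1 peak began 1316 bases upstream of the 5′ end, took in the 5′ end of the neighbouring gene *Rpl7*, and ran 934, 840 and 840 bases into *Rdh10*. In CGE the only peak began 40 bases downstream of the 5′ end and was 895 bases wide. That CGE peak ended at the same base as the MGE peak, so the lists differed in the upstream part. Its −log10 q was 10.0, above 67.1% of the CGE list. The peaks of MGE, LGE and CTX had values of 2.80, 3.03 and 3.14, above 42.8%, 38.2% and 43.3% of their own lists. With a q-value under 0.001, the LGE and CTX peaks remained and the MGE peak did not. Over the whole start window the 4 values were 56.3%, 22.4%, 53.9% and 53.9% in MGE, CGE, LGE and CTX. All 4 lists held a peak over the bases just downstream of the 5′ end.

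*Aldh1a1*, one of the retinaldehyde dehydrogenases (chr19:20492715-20643465, plus strand), was the least covered of the 10. MGE, LGE and CTX held no peak within the gene or 10 kb of it. CGE held 1 intronic peak of 1448 bases, 14452 bases downstream of the 5′ end, which also overlapped the non-coding gene *C730002L08Rik*. Its −log10 q of 2.10 was above 21.8% of the CGE list.

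*Aldh1a2* (chr9:71215789-71296243, plus strand), the enzyme known for retinoic acid synthesis in the early embryo and the meninges, had the same pair of peaks in every list. The peak at the 5′ end was 2968, 2691 and 2443 bases wide in MGE, CGE and LGE and 3204 in CTX. It ranked among the strongest of each list, with −log10 q values of 63.7, 118, 98.9 and 72.6, above 99.3%, 98.5%, 98.6% and 97.0% of the peaks. In CTX it reached 1887 bases upstream, against 1242, 1345 and 1334 in MGE, CGE and LGE, and its promoter coverage was 94.3% against 62.1%, 67.2% and 66.7%. A second peak began 11370 to 11580 bases downstream, in an intron, and was 2945 to 3174 bases wide.

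*Aldh1a3* (chr7:66390890-66427517, minus strand), the enzyme known from the LGE and the ventral retina, was covered almost alike in the 4 lists. Its start window was 82.4%, 85.3% and 80.7% covered in MGE, CGE and LGE and 81.1% in CTX, and 92.1% of the bases that any list covered at this gene were covered in all 4. The peak at the 5′ end was 3531 to 3708 bases wide and took in the starts of 3 transcripts. A further peak of 1850 to 2073 bases lay downstream of *Aldh1a3* in every list, over the 5′ end of the neighbouring gene *Lrrk1*. Over the gene and 10 kb either side, LGE had 9.75% and CTX 9.60%.

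Of the breakdown enzymes, *Cyp26c1* and *Cyp26b1* held the widest peaks of the 10 genes. *Cyp26a1* (chr19:37697798-37701536, plus strand) and *Cyp26c1* (chr19:37685581-37693398, plus strand) are neighbours, so their windows overlap and share peaks. One peak of 10280 to 10307 bases covered the whole body of *Cyp26c1* in all 4 lists, wider than 99.8% to 99.9% of the peaks of each list. A second peak covered the 5′ end of *Cyp26a1* and was 4316, 4497 and 4477 bases wide in MGE, CGE and LGE and 4756 in CTX. Between them every list left a gap, of 1373, 1495, 1456 and 1269 bases. Of the gene body of *Cyp26a1*, 69.8%, 77.7% and 77.2% was covered in MGE, CGE and LGE and 78.8% in CTX. Bases covered in all 4 lists made up 94.9% of those covered in any list at *Cyp26a1* and 95.9% at *Cyp26c1*. These peaks were wide and low, with fold enrichments of 1.57 to 2.00, against 2.76 to 3.47 at the 5′ end of *Aldh1a2*.

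The DR5 of *Cyp26a1* shown in capitals (chr19:37697776-37697792) lay inside the second peak in all 4 lists. It was 1685, 1570 and 1570 bases from the nearest peak edge in MGE, CGE and LGE and 1786 in CTX. A second DR5 stood 1889 bases upstream of the 5′ end (chr19:37695909-37695925), in the gap between the peaks. It was 166, 281 and 281 bases outside the nearest peak in MGE, CGE and LGE and 65 in CTX. The 2 elements, each read on its own strand with half-sites and spacer in capitals, are given to compare them.
Cyp26a1 at the start: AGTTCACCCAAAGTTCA
Cyp26a1 upstream: GGGTCACAGGCGGGTCA

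*Cyp26b1* (chr6:84571414-84593908, minus strand), on its own chromosome and known for guarding tissues such as the limb and hindbrain from retinoic acid, carried its H3K27me3 inside the gene. The start window of its outermost 5′ end had no covered base in any list, and neither did that of a start 162 bases downstream. A peak of 6209, 6296 and 6417 bases in MGE, CGE and LGE and 5604 in CTX began about 5.9 to 6.0 kb downstream, at a set of internal transcript starts. A narrower peak of 755 to 1141 bases lay on the other side of these starts, and the gap between both was 1316 to 1467 bases. The internal start 5270 bases downstream fell in this gap in every list. A further peak of 836 to 1727 bases lay about 18 kb downstream, with −log10 q values of 2.12 to 4.13. The share of the gene and 10 kb either side that was covered was 20.3%, 21.5% and 19.6% in MGE, CGE and LGE and 18.5% in CTX, higher than in 97.0% to 97.8% of all genes.

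**Figure D2:**
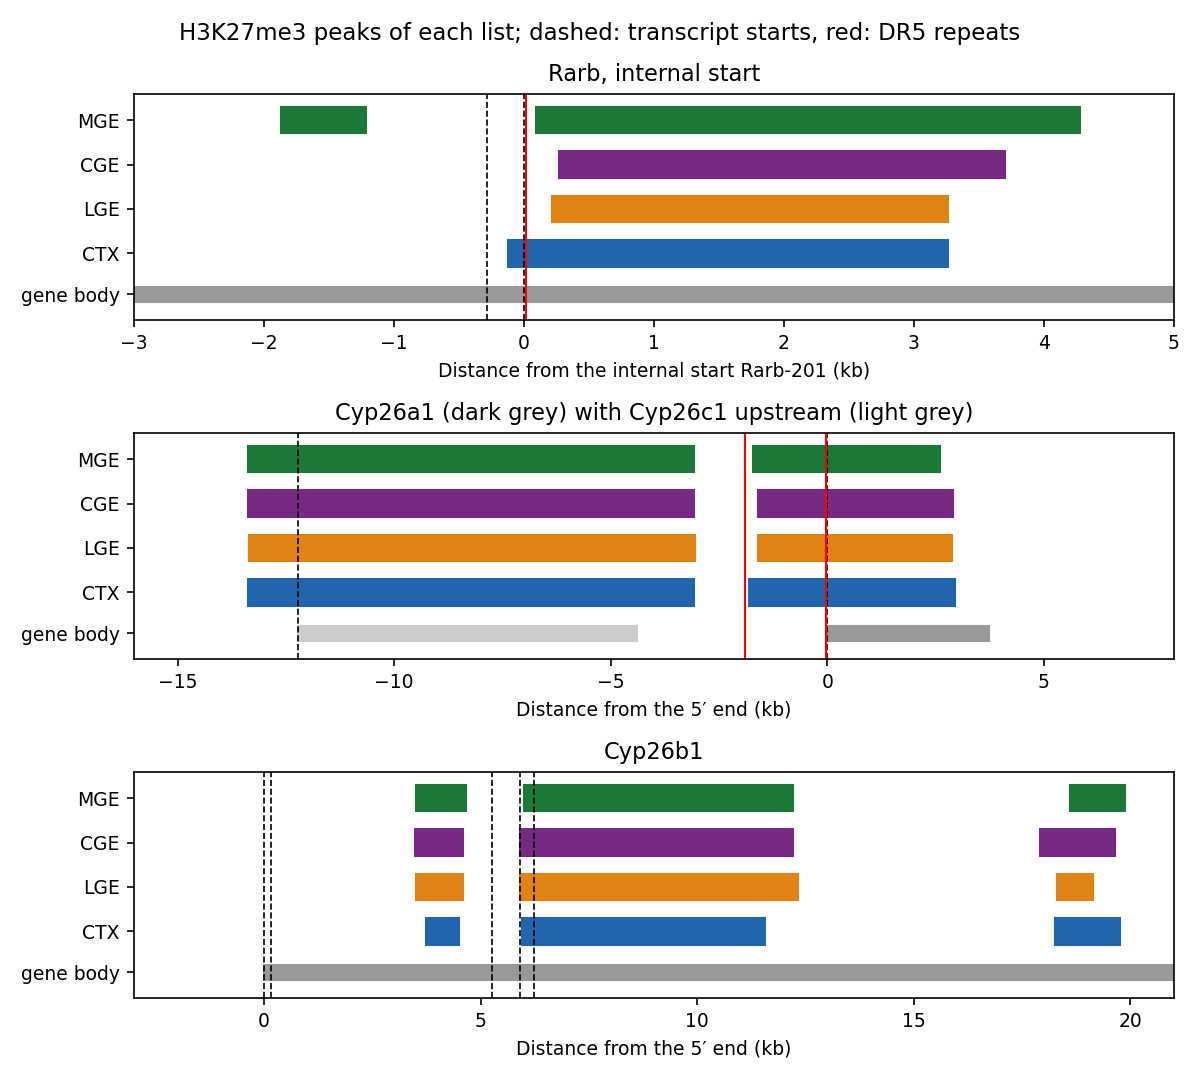
Peaks of each list (coloured bars) at the internal start of *Rarb*, at *Cyp26c1* and *Cyp26a1*, and at *Cyp26b1*, by distance in kb along the strand of the gene. Dashed lines are annotated transcript starts, red lines are DR5 repeats and grey bars are gene bodies. The CTX peak takes in the *Rarb* repeat and the other 3 peaks stop short of it, whereas the repeat at the start of *Cyp26a1* lies inside a peak in every list.

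*Crabp1*, the cytoplasmic binding protein (chr9:54764748-54773110, plus strand), had 1 peak, over its 5′ end, in each list. It was 2878, 3080 and 2956 bases wide in MGE, CGE and LGE and 2995 in CTX, with −log10 q values of 59.6, 118, 78.5 and 89.4, above 97.1% to 98.96% of the peaks of the list. The promoter was 46.2%, 57.8% and 60.3% covered in MGE, CGE and LGE and 57.8% in CTX, so the call of unmarked in MGE came from an upstream edge 925 bases from the 5′ end against 1155, 1206 and 1155. Coverage of the start window ranged over 5.05 points.

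*Rara* (chr11:98927818-98974942, plus strand), a receptor expressed in many tissues, had 4 peaks in each list. They lay near the outermost start, over a pair of internal starts about 9.9 kb downstream, near the start of *Rara-202* 32594 bases downstream, and beyond the gene over *Gjd3*. The first was the weakest in every list, with −log10 q values of 2.55, 1.74, 2.86 and 2.19 in MGE, CGE, LGE and CTX, and its width ran from 882 to 2474 bases. It covered 39.8%, 51.6%, 30.4% and 22.0% of the start window and included the 5′ end in CGE alone. The internal pair of starts lay inside a peak in all 4 lists, and the start window of *Rara-204* was 58.8%, 74.7% and 65.9% covered in MGE, CGE and LGE and 59.8% in CTX. The peak near *Rara-202* was 2754, 2884, 2810 and 2589 bases wide and had the highest −log10 q of the 4 in every list (22.7, 47.1, 46.8 and 21.03). A DR5 404 bases before the *Rara-202* start (chr11:98960008-98960024) was outside this peak in all 4 lists, by 382, 417, 491 and 623 bases.
Rara before Rara-202: AGTTCAGCAAGAGTTCA

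*Rarb* (chr14:16430839-16819156, minus strand), a receptor gene that is itself induced by retinoic acid, was the gene with the least shared coverage apart from *Aldh1a1*. Of the bases covered in any list, 18.96% were covered in all 4. MGE covered 5374 bases of the gene and 10 kb either side, CGE 9025, LGE 6719 and CTX 14307. Of the CTX bases 51.1% were covered in no other list, against 22.9% of the MGE bases, 18.6% of the CGE bases and none of the LGE bases. Over the chromosomes the same shares were 23.3% for CTX, 11.7% for MGE, 18.1% for CGE and 7.81% for LGE, so CTX had the highest share there too and CGE was near its own share. The outermost 5′ end had no covered base within 2 kb in any list. CTX held a peak of 4016 bases ending 2052 bases upstream of it, LGE one of 833 bases ending 2272 bases upstream, and MGE and CGE none there. CTX also held a peak of 3012 bases in an intron, from 70764 bases downstream, that had no counterpart in the other lists. Its −log10 q was 7.05, above 66.1% of the CTX list. A smaller intronic peak, from about 77.3 kb downstream, was held by CGE and CTX. Its −log10 q was 1.83 in CGE, above 15.9% of that list, and 10.4 in CTX, above 73.2%. An intronic peak that began 82632 to 84563 bases downstream was 534, 4571 and 2843 bases wide in MGE, CGE and LGE and 2713 in CTX.

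At the internal start of *Rarb*, 243613 bases downstream (*Rarb-201*), all 4 lists held a peak that ran into the transcript. It was 4188, 3431 and 3043 bases wide in MGE, CGE and LGE and 3386 in CTX, and the start window was 64.0%, 43.2%, 44.6% and 53.2% covered. The lists differed at the upstream edge of this peak. The start itself and the DR5 14 bases after it (chr14:16575513-16575529, 53 bases before the RefSeq start) lay inside the peak in CTX, 141 bases from its edge. In MGE, CGE and LGE the element lay outside, 63, 241 and 187 bases from the nearest covered base. The RefSeq window of *Rarb* was 8%, 0% and 0% covered in MGE, CGE and LGE and 81.3% in CTX. MGE also held a peak of 652 bases upstream of the start, with a −log10 q of 2.15, above 30.6% of its list. When peaks less than 3 kb apart were joined, the element was covered in 2 lists, MGE and CTX. Whether the edge moves between samples of a region cannot be seen in merged lists.
Rarb at the internal start: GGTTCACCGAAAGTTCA

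**Figure D3:**
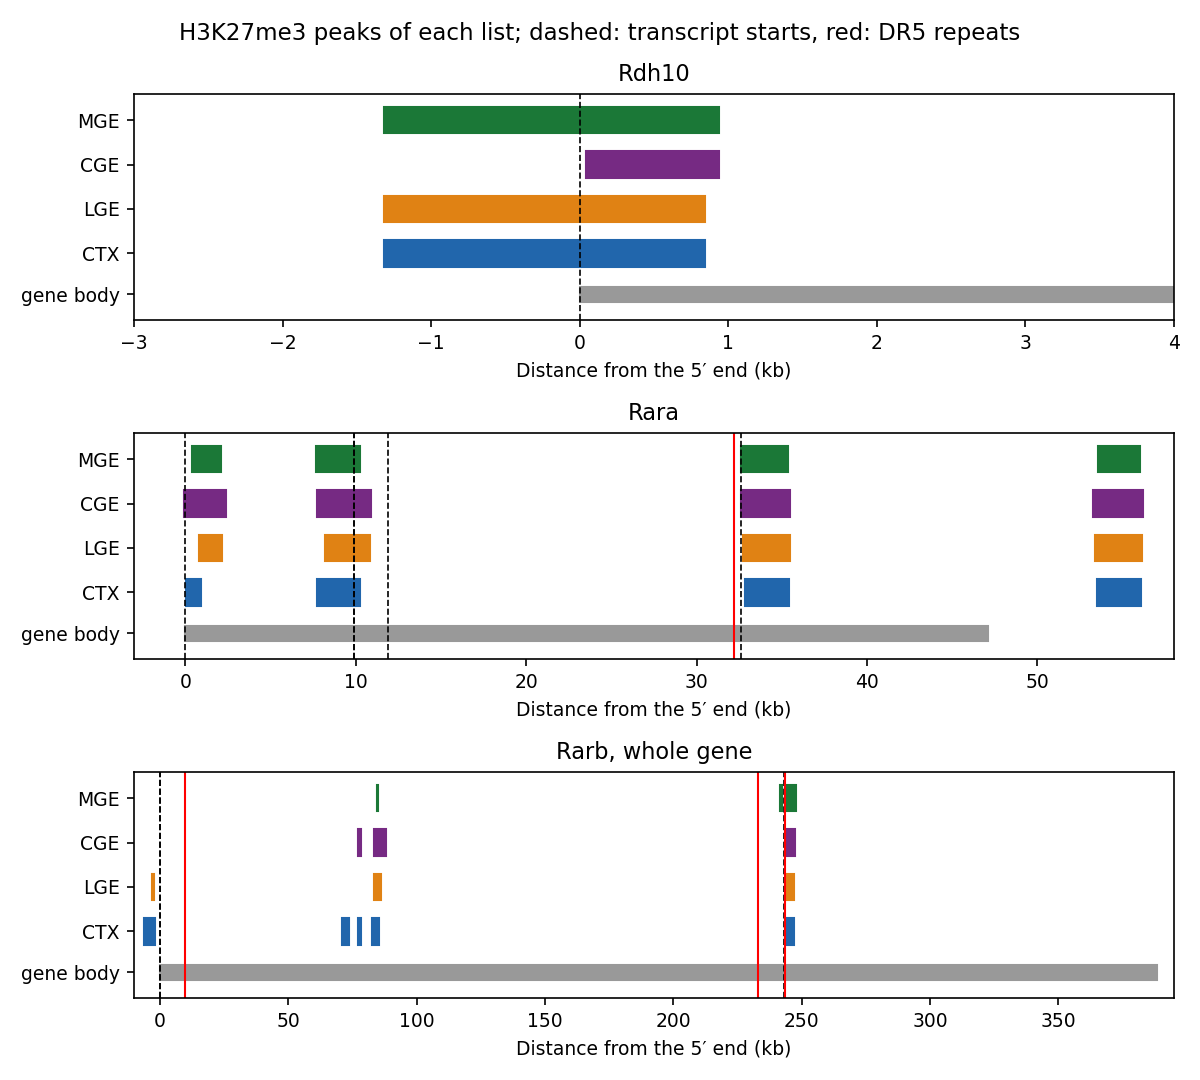
Peaks of each list (coloured bars) at *Rdh10*, *Rara* and the whole of *Rarb*, by distance in kb from the outermost 5′ end along the strand of the gene. Dashed lines are annotated transcript starts, red lines are DR5 repeats and grey bars are gene bodies. The upstream part of the *Rdh10* peak is missing in CGE, and *Rarb* has 5 peaks in CTX and 3 in each other list.

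Across the windows of the 10 genes, 8 DR5 repeats were found, 8.35 per Mb against 3.39 per Mb over the chromosomes, and 5 DR2 repeats, in which 2 bases part the half-sites, 5.22 per Mb against 10.3. Of the 8 DR5 repeats 1 lay in a peak in MGE, CGE and LGE and 2 in CTX, those at the starts of *Cyp26a1* and *Rarb*. None of the DR2 repeats lay in a peak in any list. Over the chromosomes, DR5 repeats in peaks stood at 3.10 to 3.64 per Mb of covered sequence, near the 3.39 per Mb of all sequence, and DR2 repeats in peaks at 4.65 to 5.46 per Mb, below the 10.3 per Mb of all sequence.

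The transcript starts of these genes differed in CG content as well as in coverage. The 10 genes have 26 distinct starts of protein-coding transcripts. The ratio of observed to expected CG dinucleotides in the 1 kb around a start had a median of 0.663 over the 1640 genes whose start window was at least 50% covered in all 4 lists and of 0.326 over the 13248 genes without a covered base there. Here the 8 starts with no covered base in any list, at *Aldh1a1*, *Aldh1a3*, *Cyp26b1* and *Rarb*, had ratios of 0.0986 to 0.341. The 14 starts that were at least 40% covered in all 4 lists, a limit chosen after the values were seen, had ratios of 0.262 to 0.929, so the ranges overlap. Within single genes, *Cyp26b1* had 0.221 at its uncovered outermost start and 0.847, 0.684 and 0.587 at the 3 internal ones. *Rarb* had 0.100 at its uncovered outermost start and 0.779 at *Rarb-201*. Coverage here is that of the window and does not place the start itself inside a peak. The *Cyp26b1* start with 0.847 lay outside the peaks of every list. That with 0.684 lay inside a peak in LGE alone and that with 0.587 in all 4 lists. *Rarb-201* lay inside a peak in CTX alone. *Rara* had 0.375 at the outermost start and 0.692 at *Rara-204*. *Aldh1a3* ran the other way at 1 pair of starts, with 0.341 at its uncovered start 8282 bases downstream and 0.262 at a start 1816 bases downstream whose window was 61.8% to 63.1% covered. *Cyp26c1* was covered throughout with a ratio of 0.388, and *Rdh10*, whose coverage differed between lists, had the highest ratio of the 26 starts, 0.957. Starts of a gene that lie close together share sequence and peaks, and these values are descriptions.

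**Figure D4:**
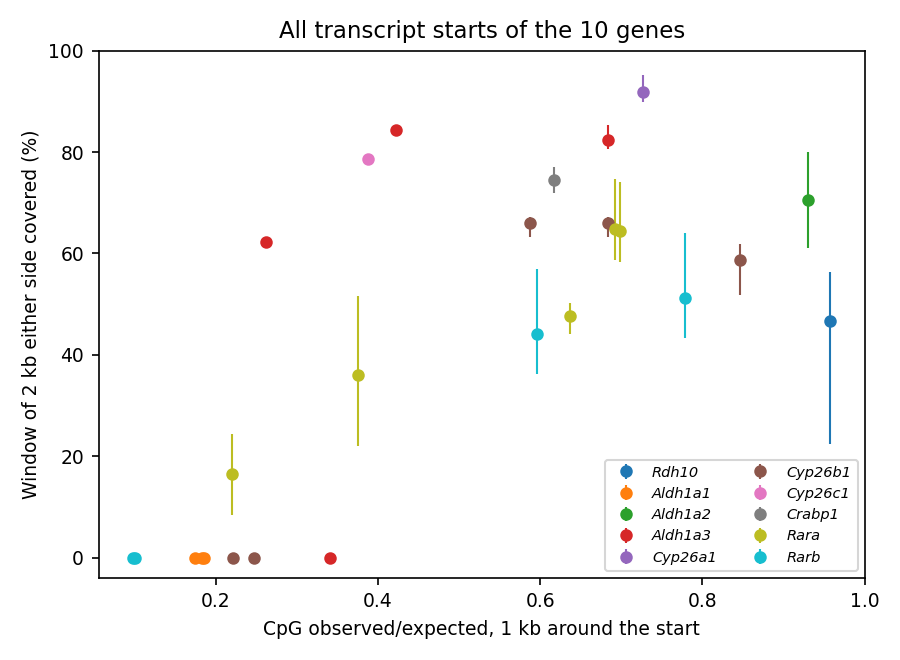
Coverage of the window of 2 kb either side of each of the 26 transcript starts against the ratio of observed to expected CG dinucleotides in the 1 kb around it, coloured by gene. Points are means over the 4 lists and bars run from the lowest to the highest list. The starts without a covered base in the window lie at ratios up to 0.341. Starts of *Rarb* and *Cyp26b1* with a partly covered window lie to the right of those without one. A covered window does not place the start itself inside a peak.

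The other genes of the pathway were taken from a list of 37 carriers, enzymes, receptors, cofactors and known targets. A promoter was marked at 8, 10 and 6 of them in MGE, CGE and LGE and at 10 in CTX, where the shares of all genes were 6.47%, 8.33%, 6.52% and 7.14%. It was marked in all 4 lists at 6, among them the receptors *Rarg* and *Rxrg* and the targets *Hoxb1* and *Zfp503*, against 4.72% of all genes, and in none at 26, against 89.9%. Of the 12 other enzymes 7 had no peak in any list, against 44.3% of all genes. The 4 other receptors each had a peak in all 4 lists, which 36.1% of all genes had. The start window differed by 50 points or more between 2 lists at 3 of the 37 (1.53% of all genes), among them *Crabp2* and *Meis2*. *Crabp2*, the relative of *Crabp1* that hands retinoic acid to the receptors, was 38.9%, 77.3% and 17.9% covered in MGE, CGE and LGE and 74.4% in CTX. *Meis2*, a homeobox target of retinoic acid known as an LGE gene, was 51.1% covered in MGE, 51.0% in CGE and free of covered bases in LGE and CTX.

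**Figure D5:**
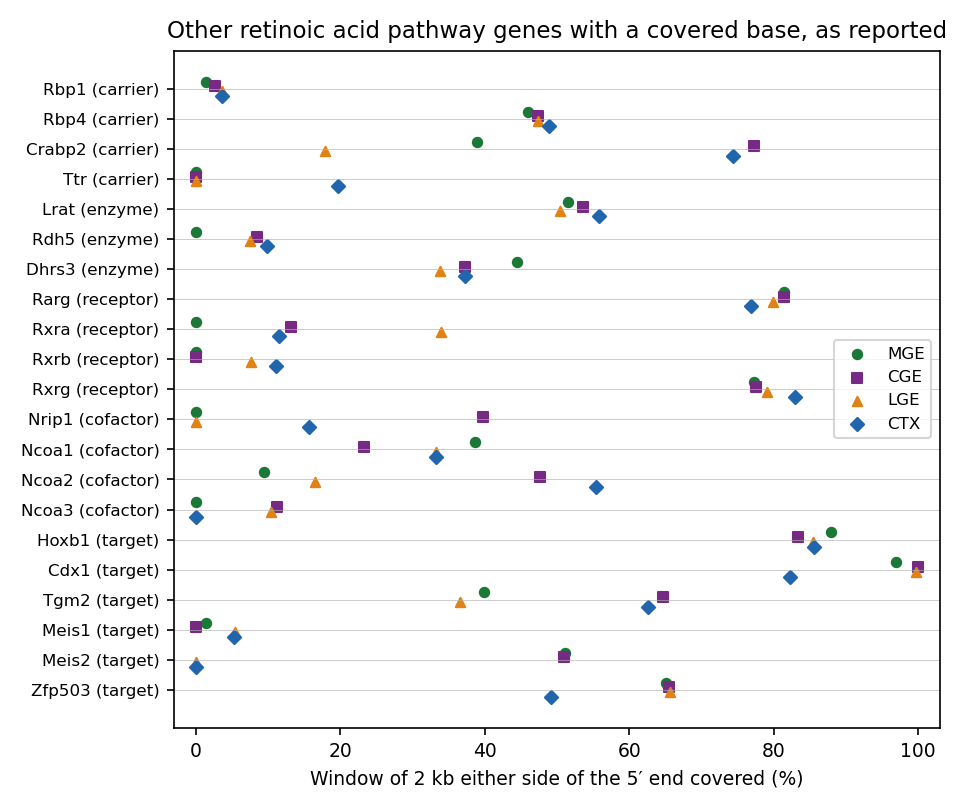
Coverage of the window of 2 kb either side of the outermost 5′ end for other retinoic acid pathway genes with a covered base there, leaving out genes not reported here, with the group of each gene in brackets. Each point is 1 peak list of a region, without an error bar. *Crabp2* and *Meis2* have lists that lie 50 points or more apart.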

How the data were processed

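The authors aligned H3K27me3 CUT&Tag reads to GRCm38 (mm10); the submitters' processing notes name Bowtie2, Picard, SAMtools and deepTools. Samples of a region were merged and broad peaks called with MACS; its version and control are not given in the sources used here. The deposited lists give positions, a score (not used), a fold enrichment and the −log10 of a p-value (not used) and of a q-value. They hold no read counts, so the depth behind a peak is unknown and no interval is given.

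Peaks on chromosomes 1 to 19 and X were intersected with GENCODE M21 genes (GRCm38), using Python 3.11.15, numpy 2.4.6 and pandas 2.3.3. Coverage was checked on simulated data. The members, the pathway and marker lists and the thresholds were chosen with earlier results of these data known. All 10 members were named; other pathway genes were named when start windows differed by 50 points or more, or as examples of counts, and results at some of them are not reported here. Promoter windows came from RefSeq (GRCm38.p6), matched by symbol for 8 of 10 members (12 windows), without *Rdh10* and *Aldh1a3*. No test was made, since each region is 1 list. Alternatives changed peak thresholds, list sizes, flanks and start definitions.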

Additional observations from a re-analysis of the deposited data

How the results depend on the processing

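The counts of genes with a peak, the counts of marked promoters and the median covered shares stayed within 1.5 times their value under every alternative run: a q-value under 0.001, peaks under 3 kb apart joined, equal numbers of strongest peaks, strongest peaks covering equal bases, flanks of 2 or 20 kb, at least 500 covered bases, and other definitions of the promoter. Within that limit, marked promoters rose from 5, 5, 6 and 6 in MGE, CGE, LGE and CTX to 7, 7, 8 and 7 with the best covered start of any transcript. With a q-value under 0.001 the MGE count was 4. The medians did not change at all under the stricter q-value, the joining of peaks or either choice of strongest peaks. Those settings therefore did not test the medians. The count of promoters marked in one list and free in another fell from 1 to 0 when 2 kb either side of the 5′ end was taken, since the CGE peak of *Rdh10* begins inside that window. The covered share in CTX minus the mean of the GEs reversed at *Cyp26b1* with 20 kb flanks (from -1.92 to 0.774 points) and at *Cyp26c1* with 2 kb flanks (from 1.16 to -0.0338 points); the cause was not tested. At *Aldh1a2*, *Aldh1a3*, *Cyp26a1*, *Crabp1*, *Rdh10*, *Rara* and *Rarb* this difference kept its direction under all 6 alternatives. It ran from 0.900 to 1.98 points at *Rarb* and from -2.76 to -0.891 points at *Rara*. Stricter thresholds, equal list sizes and joining left it unchanged at *Aldh1a2* (0.688 points), *Aldh1a3* (-0.374) and *Crabp1* (0.0834). Those settings therefore did not test its direction there. Of the same settings, only joining changed it at *Cyp26a1* (from 1.35 to 0.625 points). Only the stricter q-value changed it at *Rdh10* (from 0.812 to 2.38 points). At *Crabp1* CGE was 10.9% covered and CTX 10.6%, so the direction did not hold against each GE. Nor did it at *Rdh10*, where CTX had 4.50%, MGE 4.69% and LGE 4.50%. Only CGE, with 1.87%, lay below CTX there. At *Aldh1a1* the difference went from -0.283 to 0 where the CGE peak was dropped. Joining peaks raised the number of lists with the *Rarb* element inside a peak from 1 to 2, an alternative chosen after seeing the data. No paired analysis was possible because each region is 1 list of merged samples. No replicate could be left out for the same reason, and the lists give no depth.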
